A study of Danio rerio with 6 samples.

Results

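The nucleosome remodelling and deacetylase complex, NuRD, was followed at the transcript level through 10 zebrafish (Danio rerio) genes for its subunits, out of 32520 genes in the deposited tables. They are mta1, mta2, mta3, gatad2ab, gatad2b, chd4a, chd4b, hdac1, rbbp4 and mbd3a. Of these, 9 were found by their gene name, and rbbp4 was found through rbb4, an older symbol that the reference gene table gives for it. All 10 had enough counts to be tested.

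RNA was sequenced from the tissue behind the last somite of embryos at 16 hours post fertilisation, the region of the tailbud and presomitic mesoderm. The sall4 morphant group holds 3 libraries from embryos that had received a morpholino against sall4. Morpholinos are antisense oligomers that interfere with the translation or splicing of a transcript for as long as they last in the embryo. The control group holds 3 libraries. Embryos of control 1 carried a scrambled morpholino, and those of controls 2 and 3 had no injection. The labels give no strain, genotype or morpholino dose and do not say how many embryos went into a library. Separate clutches are not stated either, and p-values here describe only how far these libraries spread, which could be technical. In bulk tissue, fewer cells that express a gene and less RNA per cell cannot be told apart.

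Total counts ranged from 18626513 to 42423495 per library. The defining genes of the region were abundant, and the summed level of 10 tailbud and presomitic markers, msgn1, tbxta and tbx16 among them, was 5738 to 7916 CPM (counts scaled by TMM library size) in controls and 4940 to 12937 CPM in morphants. The morphant libraries stood apart from one another. The median SD of log2 CPM within the group was 0.595 in morphants and 0.253 in controls over all tested genes. Gene length moved with the deviation of a library from the mean of all 6, with Spearman correlations across genes of −0.416 in morphant 1 and 0.426 in morphant 2. In morphant 3 the correlation was −0.282, and in controls 1, 2 and 3 it was 0.206, −0.0132 and 0.0407. Transcripts of sall4, the target, averaged 1257 ± 128 CPM in controls against 1234 ± 226 CPM in morphants (SD, n = 3), which does not check the injection, since a morpholino that blocks translation need not change the transcript.

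NuRD joins an ATP-driven nucleosome remodeller, CHD4, to the histone deacetylase HDAC1. MTA proteins form the scaffold that holds the deacetylase and the histone-binding protein RBBP4, an MBD protein bridges to the remodeller, and GATAD2 proteins bind between MBD and CHD4. SALL proteins carry a short N-terminal motif that, in human proteins, contacts RBBP4 and brings NuRD to SALL target genes, where it acts mainly as a repressor. Paralogues of MTA, GATAD2 and CHD4 take the same place in the complex, so that its make-up can differ between cells.

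Per unit of transcript length, the subunits spanned a wide range of levels in the controls. The deposited FPKM values (fragments scaled by gene length and library size) averaged 149 ± 14.7 for rbbp4 and 119 ± 13.2 for hdac1 (SD, n = 3). They averaged 68.3 ± 21.0 for mta2, 52.2 ± 4.19 for mbd3a and 24.0 ± 2.38 for mta3. The rest lay close together, at 11.1 ± 2.99 FPKM for gatad2ab, 9.76 ± 0.77 for chd4b, 9.28 ± 1.36 for mta1, 8.29 ± 3.07 for gatad2b and 5.41 ± 1.23 for chd4a. The control values of neighbours in this order overlapped between mta2 and mbd3a and at each step from gatad2ab down to chd4a, and they did not overlap at the other steps. The histone-handling subunits shared with other complexes, rbbp4 and hdac1, thus had the highest levels and the remodeller pair was among the lowest.

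The comparison of morphants with controls asks which subunit transcripts differ when the recruiting factor Sall4 is targeted. The clearest difference was in mta1, whose level was below all controls in all 3 morphants. The levels of mta2, gatad2ab and gatad2b were lower on average, but control 2 lay below morphant 2 for each of them. Those of hdac1, rbbp4 and mbd3a differed little, and chd4a and chd4b were very low in morphant 1 and very high in morphant 2. By edgeR's quasi-likelihood test 0 of the 10 subunits passed an adjusted p of 0.05, against 0.0281% of all 17803 tested genes. At an unadjusted p under 0.05, 4 of the 10 were lower (5.19% of all tested genes) and 0 were higher (4.47%). DESeq2 called 1 of the 10 lower (0.722% of the genes it gave an adjusted p) and 0 higher (0.844%). The median log2 fold change of the 10 subunits, morphant minus control, was −0.04, and that of all tested genes was 0.12, the value against which single values are to be read. Without morphant 2 edgeR called 2 of the 10, both lower (4.37% of all genes), and 0 higher (4.09%). The median of the 10 was then −0.93 beside −0.04 for all genes. The middle values of the 10 were those of chd4a and chd4b, both −0.93, which are very low in morphant 1. With the length trend removed as well, 1 of the 10 was called lower (2.58%) and 0 higher (3.17%). The median of the 10 was −0.52 in that fit, beside 0.03 for all genes.

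**Figure D1:**
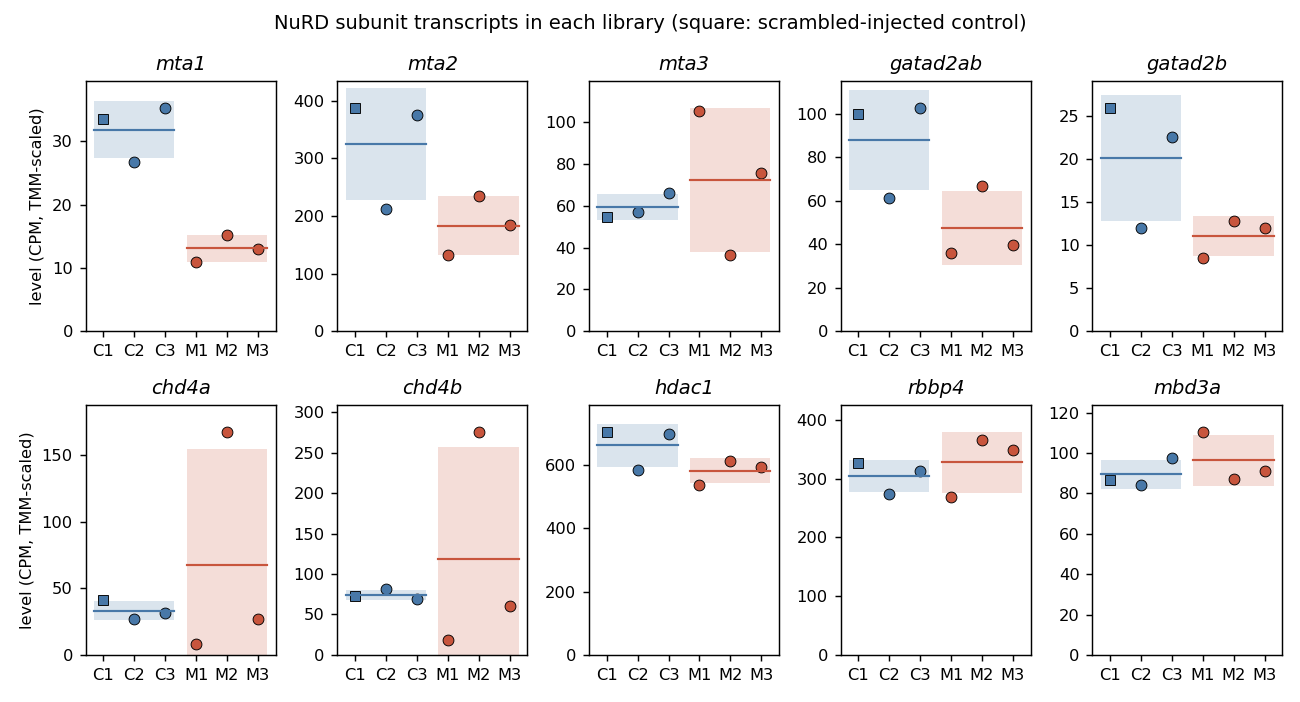
Level of each NuRD subunit transcript in CPM on TMM-scaled library sizes (vertical axes start at 0) in controls C1 to C3 and sall4 morphants M1 to M3. Lines are group means and shaded bands ± 1 SD (n = 3, not drawn below 0); the 3 morphants lie below all controls for mta1, and chd4a and chd4b are lowest in M1 and highest in M2.

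The scaffold gene mta1 (ENSDARG00000007198) had 33.5, 26.8 and 35.3 CPM in controls 1, 2 and 3. Its levels in morphants 1, 2 and 3 were 11.0, 15.2 and 13.1 CPM. The highest morphant was thus well below the lowest control, and the morphants, which differed widely at many other genes, were close to each other here. All morphants lay below all controls for 1 of the 10 subunits, mta1, and for 9.18% of all tested genes. Group means were 31.8 ± 4.49 and 13.1 ± 2.13 CPM (SD, n = 3), and the log2 fold change was −1.28 (SE 0.28). The adjusted p over all genes was 0.21 by edgeR and 0.011 by DESeq2, so the call depended on the tool.

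The size of the mta1 difference moved little under the 17 alternative settings, from −1.10 to −1.42. It passed the edgeR threshold when morphant 2 was left out (−1.42, adjusted p = 0.023) and when the length trend was taken out in addition (−1.17, adjusted p = 0.027). The other edgeR and limma settings gave adjusted p-values from 0.11 to 0.99, the highest with the scrambled control as the lone control, where that library is assumed to vary like the morphants. Relative to the control mean, with the length trend removed from each library, mta1 stood at −1.20, −1.31 and −1.12 log2 units in morphants 1, 2 and 3. As measured the values were −1.52, −1.05 and −1.27. Its SD among morphants was 0.0989 with the trend removed and 0.235 before removal. With the trend removed this SD was also smaller for mta2 (0.119, from 0.419) and for mbd3a (0.0763, from 0.183). It was smaller for both gatad2 and both chd4 genes too, and larger for mta3, hdac1 and rbbp4.

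Among markers of other cell types, the summed level separated the groups for blood and overlapped for epidermis, skeletal muscle and anterior head. Summed over 8 blood markers the level was 126, 436 and 413 CPM in controls 1, 2 and 3. In morphants 1, 2 and 3 it was 2095, 495 and 921 CPM. Of the 8, 7 were higher in all morphants than in any control (7.77% of all tested genes). At an unadjusted edgeR p under 0.05, 6 were higher (4.47%). Epidermal markers (6 genes) summed to 9619 to 14059 CPM in controls and 5233 to 12386 in morphants, skeletal muscle markers (8 rows) to 195 to 272 and 167 to 376, and anterior head markers (8 genes) to 50.1 to 71.9 and 65.3 to 112. Of the muscle markers that could be tested, 2 of 5 were above all controls in all morphants (7.77% of all tested genes) and 1 was below (9.18%). Of the epidermal (6) and anterior head (5) ones, 0 were above or below. Their median log2 fold changes were −0.30 and 1.14, beside 0.12 for all tested genes, and 0 had an unadjusted edgeR p under 0.05. The median head marker stood at 1.66, −0.16 and 1.29 log2 units from the control mean in morphants 1, 2 and 3. No marker row was at 0 in all libraries. Mitochondrial mRNA took 5.04% to 6.68% of counts in controls and 4.44% to 9.50% in morphants. The part of these differences in the mta1 result was not tested.

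The main MTA transcript, mta2 (ENSDARG00000013031), stood at 387, 212 and 375 CPM in controls 1, 2 and 3. In morphants 1, 2 and 3 it stood at 131, 235 and 183 CPM. Morphant 2 was above control 2, so the groups overlapped as measured. The means were 325 ± 97.8 and 183 ± 51.5 CPM. Its log2 fold change was −0.83 with an SE of 0.34 (edgeR adjusted p = 0.50). Its sign was the same in all 17 alternatives, with values from −0.63 to −1.09, and it passed the threshold in 0 of them. With the length trend removed, mta2 stood at −0.79, −0.74 and −0.57 log2 units from the control mean in morphants 1, 2 and 3. Control 2, the lowest control, then stood at −0.50, so all morphants were below all controls on that scale, morphant 3 only narrowly. The share of all tested genes with such an order on that scale was not computed.

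The third scaffold gene, mta3 (ENSDARG00000054903), did not follow the other two. It had 54.9, 57.0 and 66.3 CPM in controls 1, 2 and 3 and 105, 36.4 and 75.7 CPM in morphants 1, 2 and 3. Morphants 1 and 3 were above all controls and morphant 2 was below them. The fitted log2 fold change was 0.29, with an SE of 0.38 (edgeR adjusted p = 0.78). It was larger when morphant 2 was left out (0.58, adjusted p = 0.096), and its sign turned without morphant 1 (−0.079).

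The make-up of the MTA pool was compared on FPKM, which is per length but keeps the length trend of each library. At mta1, mta2 and mta3 that trend came to −0.28, −0.40 and −0.086 log2 units in morphant 1. In morphant 2 it came to 0.31, 0.38 and 0.14. The part of the trend in the shares was not tested. In controls 1, 2 and 3, mta1 made up 8.63%, 10.4% and 8.88% of the summed MTA transcripts, and in morphants 1, 2 and 3 it made up 4.37%, 6.49% and 5.23%. The groups did not overlap, with means of 9.29% ± 0.935 and 5.36% ± 1.07 (SD, n = 3) and a difference of −3.93 percentage points. The exact two-sided permutation test gave p = 0.1, the smallest that 3 against 3 libraries allow, and 0.5 after Benjamini-Hochberg adjustment over the 5 shares compared.

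The share of mta3 was 19.6%, 30.5% and 23.1% in controls and 58.0%, 21.5% and 41.9% in morphants 1, 2 and 3. In morphant 1, mta3 thus exceeded mta2, whose share there was 37.7%. In morphant 2 the share of mta2 was 72.0%, close to the 71.8% of control 1. The differences in mean share were 16.0 points for mta3 (exact permutation p = 0.3, adjusted 0.67) and −12.1 points for mta2 (exact permutation p = 0.4, adjusted 0.67). Without morphant 1 they were 7.30 and −3.87 points, and without morphant 2 they were 25.5 and −21.0 points. The summed FPKM of the 3 MTA genes was 115, 74.6 and 115 in controls and 73.3, 66.7 and 73.9 in morphants.

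**Figure D2:**
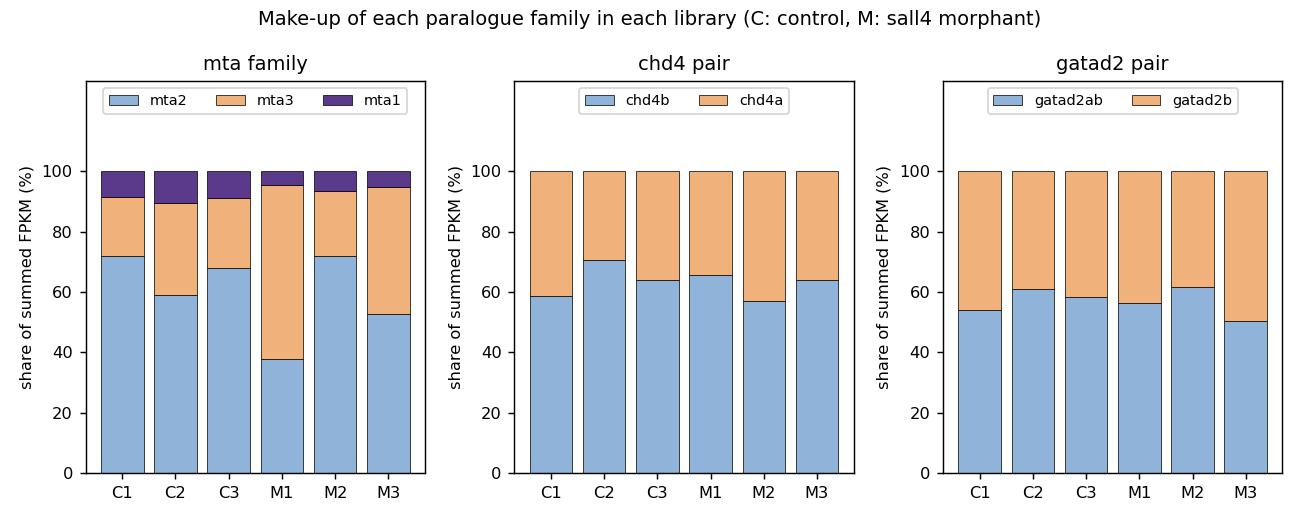
Share of each paralogue in the summed FPKM of its family (percent, stacked bars) in controls C1 to C3 and sall4 morphants M1 to M3. The mta1 share is 8.63% to 10.4% in controls and 4.37% to 6.49% in morphants, and the mta3 share is largest in M1. Over the 6 libraries the chd4a share runs from 29.3% to 42.9% and the gatad2ab share from 50.3% to 61.5%.

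The GATAD2 subunits, which tie MBD proteins to CHD4, were, like mta2, lower on average in morphants without passing the test. For gatad2ab (ENSDARG00000006192) the levels were 99.9, 61.3 and 103 CPM in controls 1, 2 and 3 and 35.8, 66.9 and 39.6 CPM in morphants 1, 2 and 3. For gatad2b (ENSDARG00000005834) they were 25.9, 12.0 and 22.5 CPM in controls and 8.47, 12.8 and 12.0 CPM in morphants. In both genes controls 1 and 3 were above every morphant, and control 2 was below morphant 2. For gatad2b, control 2 (11.95 CPM) was also just below morphant 3 (12.00 CPM).

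The log2 fold change was −0.89 (SE 0.35) for gatad2ab and −0.86 (SE 0.36) for gatad2b, with edgeR adjusted p-values of 0.47 and 0.51. Both were negative in all 17 alternatives, from −0.65 to −1.24 for gatad2ab and from −0.64 to −1.23 for gatad2b. Without morphant 2, gatad2ab passed the edgeR threshold (−1.24, adjusted p = 0.034), but not when the length trend was also taken out (−0.65, adjusted p = 0.12). It is among the longest of the 10, longer than 97.0% of tested genes. The share of gatad2ab in the pair was 54.2%, 61.1% and 58.4% in controls and 56.5%, 61.5% and 50.3% in morphants. The groups overlapped in this share, and the difference of −1.80 points had an exact permutation p of 0.7 (adjusted 0.8). It was −4.51 points without morphant 2, −3.66 without control 1 and −0.18 without control 2, and it turned to 1.09 without morphant 3.

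The remodeller genes chd4a and chd4b had the widest spread of the complex among morphants. The levels of chd4a (ENSDARG00000063535) were 41.3, 27.3 and 31.3 CPM in controls 1, 2 and 3 and 7.88, 168 and 27.2 CPM in morphants 1, 2 and 3. Those of chd4b (ENSDARG00000025789) were 72.8, 81.4 and 69.1 CPM in controls and 18.7, 276 and 60.1 CPM in morphants. Morphant 1 lay below and morphant 2 above every control, while morphant 3 was just below the lowest control in both genes.

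From the lowest to the highest morphant the level differed 21.3-fold for chd4a and 14.7-fold for chd4b, against 1.51-fold and 1.18-fold among controls. The smallest count behind these values was 120 reads, for chd4a in morphant 1. The SD of log2 CPM among morphants, 2.21 and 1.94, was larger than that of 99.3% and 98.3% of tested genes. Control SDs were 0.304 and 0.120, and that of chd4b was larger than only 17.0% of genes. The log2 fold changes were 1.02 (SE 0.90) and 0.67 (SE 0.79), with edgeR adjusted p-values of 0.69 and 0.75. Without morphant 2 both signs turned, to −0.93 for chd4a (adjusted p = 0.17) and −0.93 for chd4b (adjusted p = 0.14).

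Both chd4 genes are long, longer than 92.7% and 96.5% of tested genes. The length trend of the library at their lengths came to −0.55 and −0.71 log2 units in morphant 1 and to 0.53 and 0.69 in morphant 2, for chd4a and chd4b. With that trend removed, chd4a still stood at −1.42 from the control mean in morphant 1 and at 1.90 in morphant 2, and chd4b at −1.19 and 1.29. In morphant 3 the corrected values were −0.0097 for chd4a and −0.0034 for chd4b, at the control mean. Among morphants the split within the pair varied less than its sum. Among controls, relative to the mean, it varied more, with a chd4a share of 35.5% ± 5.97 and a summed FPKM of 15.2 ± 1.18 (SD, n = 3). The share of chd4a was 41.2%, 29.3% and 35.9% in controls and 34.2%, 42.9% and 35.8% in morphants (difference 2.19 points, exact permutation p = 0.8, adjusted 0.8), while the summed FPKM was 16.4, 15.0 and 14.1 in controls and 3.74, 61.9 and 12.5 in morphants. The share difference was 5.05 points without control 1 and 3.90 without morphant 1, and it turned to −0.91 without control 2 and −0.43 without morphant 2.

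Most of the listed ISWI subunit genes and other CHD genes were also low in morphant 1 and high in morphant 2. Of 14 tested rows of ISWI subunits and of CHD genes outside NuRD, 13 were below all controls in morphant 1 and above all controls in morphant 2. That pattern, looked for after the values were seen, was present in 3 of the 10 NuRD subunits (chd4a, chd4b and rbbp4), in 9 of 22 SWI/SNF rows and in 19.9% of all tested genes. The list of 14 was also long, with a median length 3.18 times that of all tested genes. Its median deviation from the control mean was −1.14 in morphant 1 and 1.53 in morphant 2 as measured, and −0.60 and 0.90 with the length trend removed. The chromodomain gene chd7, known for its role in neural crest, had 311 to 423 CPM in controls and 104, 1013 and 211 CPM in morphants 1, 2 and 3. By the naming rule, chd6 and smarca5, an ISWI motor, are named from this list. Their log2 fold changes of 0.92 (SE 0.57) and 0.80 (SE 0.66) did not pass (edgeR adjusted p = 0.61 and 0.67), and without morphant 2 both signs turned, to −0.041 and −0.46. With the length trend removed, chd6 stood at 0.63, 0.85 and 0.80 from the control mean in morphants 1, 2 and 3, and its log2 fold change was 0.76 (SE 0.21, adjusted p = 0.22), or 0.72 with morphant 2 left out as well (adjusted p = 0.055). That of smarca5 was 0.70 and −0.23 in these fits. Over the list, 0 rows passed by edgeR or DESeq2, and the median log2 fold change was 0.42, which was −0.73 without morphant 2.

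**Figure D3:**
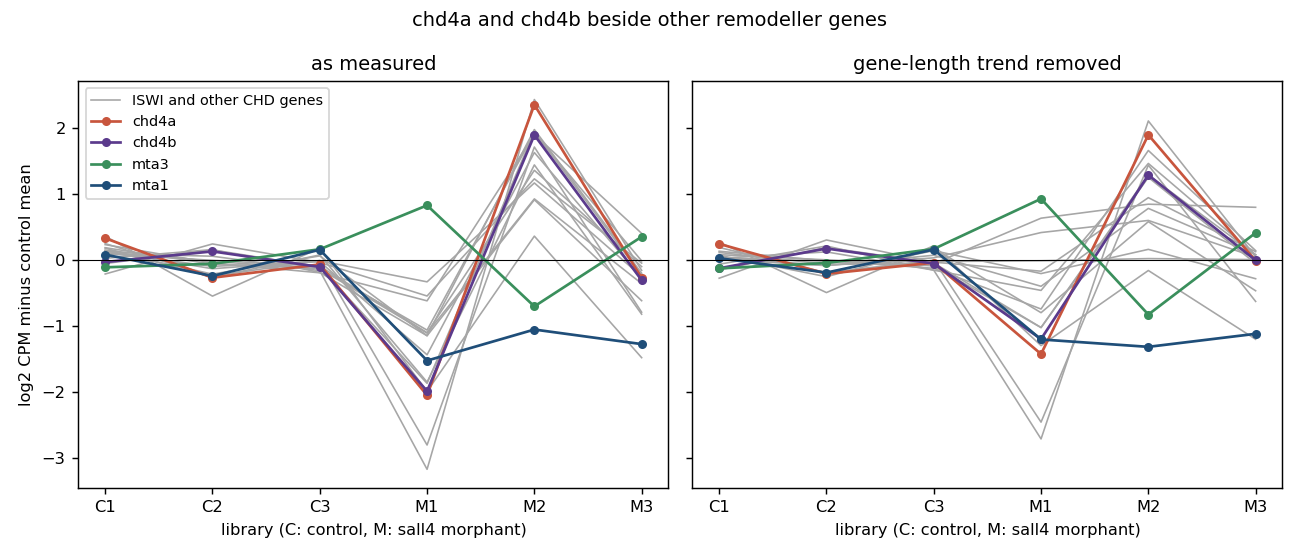
Log2 CPM minus the control mean (vertical axis) in controls C1 to C3 and sall4 morphants M1 to M3 for chd4a, chd4b, mta1, mta3 and, in grey, 14 rows of ISWI and other CHD genes, as measured (left) and with each library's trend on gene length removed (right). The chd4 genes and most of the 14 grey rows dip in M1 and peak in M2 in the left panel, less so in the right panel. In contrast, mta1 is between −1.05 and −1.52 in every morphant as measured.

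The deacetylase hdac1 (ENSDARG00000015427) had 706, 585 and 698 CPM in controls and 539, 614 and 594 CPM in morphants 1, 2 and 3. Control 2 lay within the morphant range. The fitted log2 fold change was −0.19, with an SE of 0.24 (edgeR adjusted p = 0.77). Its SD among morphants, 0.0985 on log2 CPM, was larger than that of only 3.03% of tested genes. With the length trend removed that SD was 0.397, and hdac1 stood at 0.26, −0.50 and 0.087 from the control mean in morphants 1, 2 and 3. For the histone chaperone rbbp4 (ENSDARG00000029058) the levels were 327, 275 and 313 CPM in controls and 268, 366 and 350 CPM in morphants, with a log2 fold change of 0.11 with an SE of 0.25 (adjusted p = 0.88). For mbd3a (ENSDARG00000061774), the methyl-CpG-binding-domain subunit, they were 86.5, 84.4 and 97.7 CPM in controls and 111, 87.2 and 91.0 CPM in morphants, with a log2 fold change of 0.10 with an SE of 0.24 (adjusted p = 0.87). The groups overlapped for all 3 genes. Each of the 3 turned its sign in at least 1 alternative, hdac1 to 0.17 and rbbp4 to −0.0067 with the length trend removed and morphant 2 left out, and mbd3a to −0.0025 without morphant 1.

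**Figure D4:**
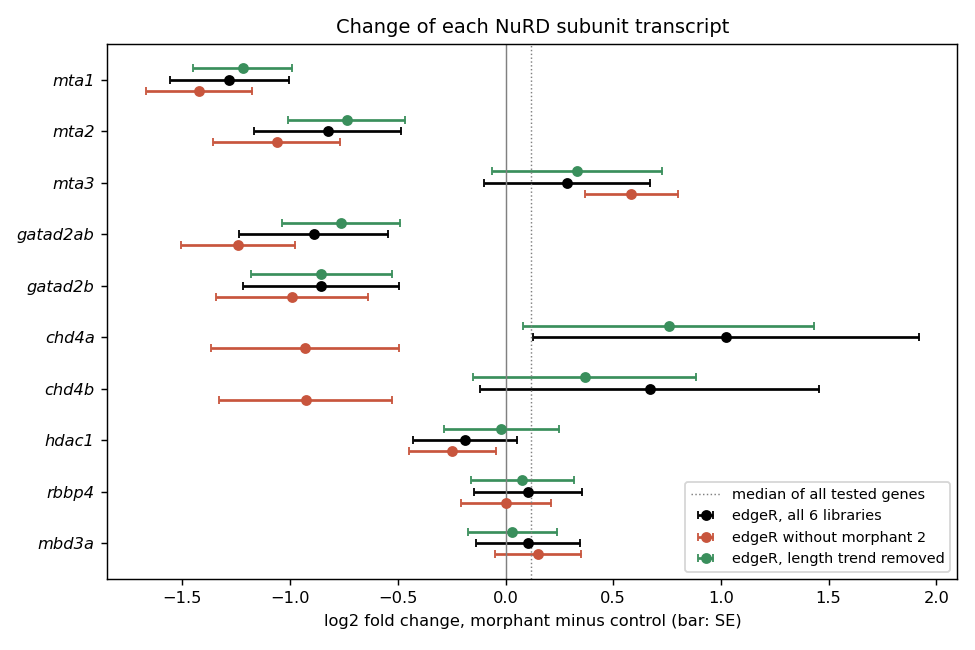
Log2 fold change, morphant minus control, of each NuRD subunit transcript by edgeR (bars are SE) with all 6 libraries, without morphant 2 and with the gene-length trend removed; the dotted line is the median of all tested genes, 0.12. The values of mta1, mta2, gatad2ab and gatad2b are negative in all 3 fits, and those of chd4a and chd4b change sign without morphant 2.

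Over the 6 libraries the subunits fell into sets with a like order of levels, given here as a description with no test, since the libraries share depth, length trend and group. Pearson's r of log2 CPM was 0.99 between mta2 and hdac1, 0.98 between mta2 and gatad2b and 0.98 between chd4a and chd4b. It was −0.97 between mta3 and chd4b and −0.96 between mta3 and chd4a. The genes most like mta1, among the 14016 whose log2 CPM averaged 1 or more, were BX927404.1, known only by a clone name (r = 0.998), ncam1b, a neural cell adhesion gene (0.996), and bmpr1bb, a BMP receptor gene (0.995), each over 6 libraries. Since these genes were picked for following mta1, their levels are a description. Mean levels in controls and in morphants were 5.69 ± 0.539 and 3.00 ± 0.341 CPM for BX927404.1, 3.74 ± 0.935 and 1.16 ± 0.226 CPM for ncam1b, and 9.02 ± 2.08 and 3.33 ± 0.702 CPM for bmpr1bb.

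The remaining NuRD subunits and close paralogues were taken from a list of 10 names, of which 9 had a row and 8 rows were tested. By edgeR and by DESeq2 0 passed, and 0 had an unadjusted edgeR p under 0.05, while the median log2 fold change was 0.23, with 0.079 without morphant 1 and 0.39 without morphant 2. The low counts of chd3 and chd5, the other remodellers of the CHD4 class, kept them out of the test, with at most 0.58 CPM in any library. Of the rbbp4 paralogue, rbb4l (known as rbbp7), the level was 83.6, 99.3 and 85.7 CPM in controls and 109, 128 and 103 CPM in morphants. All morphants were above all controls (7.77% of all tested genes), but a log2 fold change of 0.34 with an SE of 0.24 was not past the threshold (edgeR adjusted p = 0.64). By FPKM, rbbp4 made up 83.4% to 87.7% of that pair in controls and 81.7% to 86.1% in morphants.

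Among the MBD genes, mbd3a made up 82.7% to 85.3% of the summed FPKM with mbd3b and mbd2 in controls and 83.6% to 88.2% in morphants. The paralogue mbd3b had an SD of log2 CPM among morphants of 0.718, near the 0.783 of mta3. Its levels were 63.8, 63.0 and 65.1 CPM in controls and 89.2, 34.9 and 74.6 CPM in morphants 1, 2 and 3. The other named gene of the list, hdac8 (ENSDARG00000003021), a deacetylase that is not a NuRD subunit, averaged 16.9 ± 3.88 CPM in controls against 28.9 ± 10.9 CPM in morphants (a log2 difference of 0.77, SE 0.36, edgeR adjusted p = 0.54). This row passed by edgeR without morphant 2 (0.99, adjusted p = 0.049), and when the length trend was taken out in addition. A further tested row named hdac8 (ENSDARG00000105159) did not pass by edgeR or DESeq2 with all libraries.

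Factors that carry the NuRD-binding N-terminal motif form the recruiting side. Of 12 listed names 11 had a row and 9 were tested, and 0 passed by edgeR or DESeq2. At an unadjusted edgeR p under 0.05, 1 was lower (5.19% of all tested genes) and 1 was higher (4.47%). These were bcl11aa, with 2.28 ± 0.366 CPM in controls against 0.846 ± 0.203 CPM in morphants (a log2 difference of −1.44, SE 0.40, edgeR adjusted p = 0.32), and sall3b, at 65.5 ± 18.1 and 154 ± 55.0 CPM (1.23, SE 0.35, adjusted p = 0.33). The sall3b values passed with morphant 2 left out and the length trend removed (1.33, adjusted p = 0.017). By FPKM, sall4 itself (157 ± 14.5 in controls) averaged close to rbbp4 (149 ± 14.7), the subunit contacted by the motif.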

How the data were processed

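Per the labels' protocols, RNA was taken up in Trizol, purified with a micro column kit and made into strand-specific libraries from polyadenylated RNA. The authors deposited raw counts, 1 whole number per gene and library, and no row lacks a gene. The deposited FPKM values equal those counts divided by a length and by 1 scale per library, which was checked and gave the relative lengths used here. STAR 2.7.10a, DESeq2 1.38.3 and GRCz11 come from the submitters' processing notes, which give no roles. How reads were counted (tool, strand, annotation) is not given in the sources used here, so reads of paralogues or overlapping genes may be split. No genome or sequence table of that build was used.

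Counts of 17803 genes (filterByExpr) entered edgeR 4.0.16 under R 4.3.3 with TMM scaling and group as the only term, a two-sided quasi-likelihood F test and Benjamini-Hochberg adjustment over all genes at 0.05. SE is the log2 fold change divided by the square root of F. DESeq2 1.42.0, limma-trend (limma 3.58.1) on log2(FPKM + 1) and log2(FPKM + 0.1), other scalings and filters, the scrambled control alone, removal of a lowess trend on length (span 0.3), a replicate block and left-out libraries were alternatives. Log2 CPM has a prior count of 2. The fits were tested on simulated counts. Those counts had the same dispersion in both groups and no length trend, so they do not cover the wider spread among morphants seen here. Shares of FPKM were compared by exact permutation. Members and lists were chosen with earlier results of these data known. Named are the 10 subunits, sall4, in each other list the genes past the threshold by edgeR or DESeq2 or else those of smallest p up to 2, and the 3 genes most like mta1; mbd3b, mbd2, chd3, chd5, chd7 and markers were named after their values were seen.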

Additional observations from a re-analysis of the deposited data

How the results depend on the processing

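Over all tested genes edgeR called 5. The count was 1 with library size scaling, 28 with no filter, 334 by DESeq2, 11 on log2(FPKM + 1), 16 on log2(FPKM + 0.1), 0 with the scrambled control alone, 20 with the length trend removed and 1042 with morphant 2 left out as well. It ranged from 0 to 1534 when 1 library was left out, highest without morphant 2. Of the NuRD subunits 0 were called, but 1 by DESeq2 and 1 with the length trend removed and morphant 2 left out (mta1 in both), and 0 to 2 when 1 library was left out (mta1 and gatad2ab without morphant 2). Median-of-ratios size factors and the stricter filter changed neither count. Library size scaling moved the median log2 fold change of all genes from 0.12 to 0.03 and that of the subunits from −0.04 to −0.13.

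The main fit did not pair the samples by replicate number, and 3 libraries per group cannot show whether such a pairing holds. Deviations from the group means correlated at −0.29, −0.10 and 0.16 between same-numbered libraries, and control 1 correlated best with morphant 2 (0.30). With the replicate block 0 genes and 0 subunits were called, mta1 was at −1.29 (adjusted p = 0.64), and chd4a and chd4b were at −0.029 and −0.14.

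No subunit past the threshold in any setting changed sign, but log2 fold changes and shares that did not pass, those of chd4a, chd4b and smarca5 among them, did, and the cause was not tested. On log2(FPKM + 1) and log2(FPKM + 0.1), chd4b was at −0.044 and −0.12. With the scrambled control alone, rbbp4 was at −0.0056 and sall4 at 0.14, and the share differences of chd4a and gatad2ab were −3.55 and 1.91 points. With the length trend removed sall4 was at 0.19, and with morphant 2 left out as well chd4a, chd4b, hdac1, rbbp4, sall4 and smarca5 were at −0.56, −0.48, 0.17, −0.0067, 0.45 and −0.23. Over the 6 fits that each left out 1 library, values ran from −0.93 to 1.55 for chd4a, −0.93 to 1.18 for chd4b, −0.041 to 1.34 for chd6 and −0.46 to 1.25 for smarca5, lowest without morphant 2 and highest without morphant 1. They ran from −0.079 (without morphant 1) to 0.58 (without morphant 2) for mta3, −0.0025 to 0.17 for mbd3a and −0.12 to 0.12 for sall4. The share differences ran from −0.91 to 5.05 points for chd4a, −4.51 to 1.09 for gatad2ab, −4.49 to −3.39 for mta1, −21.0 to −3.87 for mta2 and 7.30 to 25.5 for mta3.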

Other observations

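Other chromatin complexes were compared in the same fit, of which Sin3, CoREST and Polycomb repressive complex 2 share HDAC1 or RBBP4 with NuRD. In the Sin3 complex, a deacetylase complex, 14 rows were tested and 0 passed by edgeR or DESeq2, with 0 at an unadjusted edgeR p under 0.05 and a median log2 fold change of 0.14. The genes with the smallest p were ing1 (17.5 ± 4.71 CPM in controls against 27.3 ± 3.47 CPM in morphants, a log2 difference of 0.64, SE 0.30) and brms1la (0.56, SE 0.33), with edgeR adjusted p-values of 0.54 and 0.60. All morphants were above all controls for ing1, 1 of the 14 rows (7.77% of all tested genes). In the CoREST complex, which joins HDAC1 to a histone demethylase, 8 rows were tested, 0 passed by edgeR or DESeq2 and 0 had an unadjusted edgeR p under 0.05, with a median of 0.11. Its paralogues phf21aa and phf21ab had opposite signs, 0.83 (SE 0.44) and −0.53 (SE 0.33). By edgeR, phf21ab passed without morphant 2 (−0.90, adjusted p = 0.046), but not when the length trend was also taken out. For Polycomb repressive complex 2, which contains RBBP4 and methylates histones, 10 rows were tested, with a median of −0.05. By DESeq2 1 passed, jarid2b, an accessory subunit that was lower in morphants (0.722% of the genes given an adjusted p). Its levels were 34.6, 25.1 and 36.0 CPM in controls and 4.60, 13.6 and 8.32 CPM in morphants 1, 2 and 3. All morphants lay below all controls, as for 9.18% of all tested genes. The log2 fold change was −1.85 (SE 0.42), with an adjusted p of 0.0066 by DESeq2 and 0.22 by edgeR. By edgeR, jarid2b also passed without morphant 2 (−2.31, adjusted p = 0.013), and when the length trend was taken out in addition. The accessory subunit aebp2 stood at 73.0 ± 11.1 and 53.0 ± 4.66 CPM (−0.46, SE 0.25, edgeR adjusted p = 0.58). Its morphants too lay below all controls, which made 2 of the 10 rows (9.18% of all tested genes). In the SWI/SNF remodellers 22 rows were tested and 0 passed by edgeR or DESeq2, with a median of 0.06. At an unadjusted edgeR p under 0.05, 1 was lower (5.19% of all tested genes). That gene was arid2, at 179 ± 49.8 CPM in controls against 102 ± 21.3 CPM in morphants (−0.82, SE 0.31, edgeR adjusted p = 0.45, and 0.048 without morphant 2). With the length trend also taken out, arid2 did not pass. The core subunit gene smarcc1a stood at 344 ± 67.8 and 237 ± 26.5 CPM (−0.54, SE 0.26, edgeR adjusted p = 0.56). All morphants were below all controls for smarcc1a, 1 of the 22 rows (9.18% of all tested genes), and above them for 1 row (7.77%).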
